A study of Mus musculus with 12 samples.

Results

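Blastocyst libraries of batch 2 were compared with those of batch 1. The batch 2 libraries are the 6 with replicate number 2 and the batch 1 libraries the 6 with replicate number 1, which together are all 12 of the series, and each group gave 1 pair of them. The replicate number equals the batch in the labels for every group, and the labels do not say what a batch covers. Each library was poly(A) RNA of a pool of 10 blastocysts from wild-type ICR mice, an outbred stock, fertilized in vitro and cultured to 96 hours post insemination. The groups of both batches were HFD_siNampt, HFD_siNT, HFD_C, ND_siNampt, ND_siNT and ND_C. HFD and ND are diet labels without an explanation, and the title of the series names normal weight and obese mice. siNampt and siNT are a Nampt-targeting and a non-targeting siRNA electroporated into zygotes at 3 to 6 hours, and C is the control, and whether C zygotes were electroporated without siRNA is not stated. The age of the mice is not stated either, and the pooling of embryos means that no value belongs to a single embryo. Of 23248 autosomal genes in the deposited tables, 12819 were counted deeply enough to be tested. Nothing in the labels says that pools of different batches came from separate matings, so p-values measure the spread between pools. Whether pools of the same batch and diet shared matings or culture is not stated either. The pairs of a diet may therefore not be independent, which limits the p-values within a diet and for HFD minus ND.

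Trib3 and Chac1 were the genes given with this comparison. Both are targets of ATF4, the transcription factor at the centre of the integrated stress response. In that response a stress-sensing kinase phosphorylates the translation factor eIF2alpha, general translation slows, and translation of ATF4 mRNA is favoured. ATF4 then switches on genes for amino acid import, amino acid and one-carbon synthesis and tRNA charging, along with regulators such as Ddit3, also called CHOP. Trib3 is a pseudokinase that restrains ATF4 and Ddit3 activity, and Chac1 is an enzyme that degrades glutathione. Early embryos are known to use the response when culture conditions or amino acid supply are unfavourable.

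Composite elements read by ATF4 with a C/EBP partner carry the letters TGATGNAA, where N is any base. The promoter windows of Chac1 and Trib3, from 250 bases before to 50 bases after the start of the gene in RefSeq on GRCm38.p6, are shown because these are the 2 genes given with the comparison and each window holds a match. The Chac1 window is chr2:119350992-119351291 on the + strand and the Trib3 window is chr2:152344011-152344310 on the - strand. Capitals mark the match, which lies on the opposite strand in both windows.
Chac1: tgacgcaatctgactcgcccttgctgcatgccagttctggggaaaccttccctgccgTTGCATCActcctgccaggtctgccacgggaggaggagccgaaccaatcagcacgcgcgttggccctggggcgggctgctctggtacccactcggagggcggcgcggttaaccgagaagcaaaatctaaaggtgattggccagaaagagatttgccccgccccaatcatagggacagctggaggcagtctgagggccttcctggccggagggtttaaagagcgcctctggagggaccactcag
Trib3: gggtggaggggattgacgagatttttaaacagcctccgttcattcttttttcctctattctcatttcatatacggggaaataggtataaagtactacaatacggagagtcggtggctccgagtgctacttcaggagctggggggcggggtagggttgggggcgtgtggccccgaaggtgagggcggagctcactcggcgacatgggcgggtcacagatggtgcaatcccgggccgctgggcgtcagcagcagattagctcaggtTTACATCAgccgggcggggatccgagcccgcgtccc
The match begins 193 bases before the start of Chac1 and 14 bases after that of Trib3. Both strands were searched. Of 31396 promoter windows of this length, 3.83% held a match. Of the 34 genes of the ATF4 list with a window, 14 (41.2%) held one, against 4.33% of 25748 autosomal genes. A match is a description of these letters and does not show binding.

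Totals of expected counts were 43.6 M to 50.5 M (M for mega) in batch 2 and 42.5 M to 49.5 M in batch 1, and 3 of 6 pairs had the higher total in batch 2. Of the blastocyst marker lists, 29 of 29 trophectoderm, 24 of 25 epiblast and 20 of 22 primitive endoderm genes reached a mean of 1 CPM (the read count relative to the total count of the library, adjusted by TMM factors), and their summed levels overlapped between the batches. Of the 12 sperm markers 3 were at 0 in every library, and likewise 3 of the 12 blood cell markers. The summed level of the 16 cumulus and granulosa cell markers was 138 to 225 CPM in batch 2 and 167 to 304 CPM in batch 1, lower in 6 of 6 pairs (exact paired test, two-sided p = 0.03125, the smallest that 6 pairs allow). Only Serpine2 and Star of that list reached 1 CPM, and Serpine2 alone made up 135 to 220.4 CPM (median 176) in batch 2 and 163 to 299 CPM (median 219) in batch 1. Summed Y-linked transcripts were 68.2 to 429 CPM (median 157) in batch 2 and 162 to 351 CPM (median 317) in batch 1, lower in 5 of 6 pairs (exact paired p = 0.125). Xist was 143, 91.1 and 103 CPM in the siNampt, siNT and C libraries of HFD and 169, 83.95 and 188 CPM in those of ND in batch 2, against 140.0, 103 and 105 CPM in HFD and 32.3, 72.5 and 71.1 CPM in ND in batch 1. Nampt, the targeted gene, was 44.2, 65.8 and 57.3 CPM in HFD and 37.8, 49.4 and 38.3 CPM in ND in batch 2, against 50.3, 61.3 and 66.9 CPM in HFD and 53.8, 74.6 and 54.2 CPM in ND in batch 1, again siNampt, siNT and C, and was lower in batch 2 in 5 of 6 pairs without passing (-0.32, SE 0.11, adjusted p = 0.336). Whether the cumulus markers or Xist had a part in the results was not tested. The mean log2 CPM of 8 Y-linked genes, rather than their sum, was tried as a covariate.

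Over all 6 pairs, 48 autosomal genes differed between batch 2 and batch 1 at an adjusted p under 0.05 (edgeR quasi-likelihood test with the 6 groups as a block, Benjamini-Hochberg), which is 0.374% of the genes tested, and 1242 (9.69%) had an unadjusted p under 0.05. Of the 48, 35 were higher in batch 2 (0.273%) and 13 lower (0.101%). All 48 had the same sign in 6 of 6 pairs, as did 6.02% of all autosomal genes tested, and the libraries of the batches did not overlap for 36 of them, as for 0.897% of all. At least 2-fold differences were found for 27, and the median size was 1.05 on the log2 scale. Leaving out 1 pair gave 24 to 45 called genes, with 24 without HFD_siNampt, 25 without HFD_siNT and 29 without HFD_C, and the Y-linked covariate left 11, of which 9 were among the 48. The genes were a mixture: an uncharacterised RNA, zinc-finger genes, membrane proteins, and mitochondrial and nucleolar genes. In pools of whole embryos, fewer cells of a type and less RNA per cell cannot be told apart.

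AA465934, a long noncoding RNA gene of chromosome 11 (chr11:83291699-83294637, mm10), had the smallest p. It was 15.3, 17.9, 12.5, 20.9, 48.4 and 34.6 CPM in batch 2, against 0.385, 0.0828, 0.239, 0.104, 0.480 and 0.120 CPM in batch 1 (HFD siNampt, siNT and C, then ND siNampt, siNT and C). Every batch 2 library lay above 10 CPM, while no batch 1 library reached 1 CPM. The log2 difference was 6.70 (SE 0.34, adjusted p = 2.61e-06), or 104-fold. Gm13102, a predicted gene of chromosome 4, was 42.9, 35.5, 2.51, 22.5, 81.4 and 28.1 CPM in batch 2, against 1.35, 1.28, 0.869, 1.21, 1.39 and 2.31 CPM in batch 1 in the same order. The HFD_C library of batch 2 was far lower than the other libraries of batch 2, yet above all of batch 1, and the log2 difference was 4.26 (SE 0.44, adjusted p = 0.00117).

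Ly6e, a lipid-anchored membrane protein of the Ly6 family, was 501, 297, 217, 246, 68.1 and 179 CPM in batch 2, against 42.1, 34.4, 37.1, 29.1, 26.99 and 25.7 CPM in batch 1. The ND_siNT library was the lowest of batch 2, and there was no overlap, at a log2 difference of 2.76 (SE 0.23, adjusted p = 0.000203). Slc6a13, a transporter of GABA and taurine, was 74.6, 42.7, 44.4, 83.9, 42.8 and 59.7 CPM in batch 2, against 22.4, 17.3, 17.9, 31.6, 18.3 and 30.04 CPM in batch 1. Its differences were alike in all pairs, from 0.99 to 1.74 on the log2 scale, with a fitted value of 1.33 (SE 0.11, adjusted p = 0.000203). Taf7, a subunit of the basal transcription factor TFIID, was 107 to 182 CPM (median 157) in batch 2 and 53.8 to 74.7 CPM (median 62.1) in batch 1, a log2 difference of 1.26 (SE 0.14, adjusted p = 0.00221). Timmdc1, an assembly factor of respiratory complex I, was 20.6 to 28.6 CPM (median 21.9) in batch 2 and 6.14 to 16.3 CPM (median 9.23) in batch 1, a log2 difference of 1.34 (SE 0.16, adjusted p = 0.00302). The RIKEN gene 2610005L07Rik and Tex19.2, a mammal-specific gene of the germ line and early embryo, rose by 0.73 and 0.84 on the log2 scale (adjusted p = 0.00340 and 0.00939).

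Among genes lower in batch 2, Cd86, the costimulatory ligand of antigen-presenting cells, had the smallest p. It was 1.84, 3.50, 1.95, 2.85, 2.62 and 1.66 CPM in batch 2, against 12.4, 11.7, 7.41, 9.13, 11.4 and 6.25 CPM in batch 1, without overlap, and the log2 difference was -2.02 (SE 0.18, adjusted p = 0.000344), 4.05-fold lower. Dynlt1a, a light chain of the dynein motor, was 8.99 to 21.5 CPM (median 16.00) in batch 2 and 28.5 to 49.01 CPM (median 46.4) in batch 1 (-1.52, adjusted p = 0.00163), and its neighbour Dynlt1b was 248 to 552 CPM (median 371) in batch 2 and 589 to 929.8 CPM (median 681) in batch 1 (-0.995, adjusted p = 0.0101). These are near-identical copies on chromosome 17, so the split of reads between them is uncertain. Trim38, a ubiquitin ligase, fell by 1.15, and Lyrm7, an assembly factor of respiratory complex III, by 0.87 on the log2 scale. The remaining genes named by rule fell by less or passed less clearly. These were Lmo7, a LIM-domain protein (-1.02), Ggh, which trims folate polyglutamates (-1.24), Btbd9 (-0.79), Prune, the exopolyphosphatase also called Prune1 (-0.75), Gpatch4 (-0.56) and Nop58, a core protein of box C/D snoRNPs (-0.56), with adjusted p between 0.0142 and 0.0417. The libraries of the batches overlapped for Ggh and Gpatch4 and not for the other 4, and every pair had the same sign. Of the 23 genes named here by rule, 8 kept their call under all 15 alternatives (AA465934, Gm13247, Slc6a13, Ly6e, Gm13102, Gm13251, Gm13157 and Cd86), and 9 more lost it only with the Y-linked covariate (Taf7, Timmdc1, Zfp534, 2610005L07Rik, Tex19.2, Dynlt1a, Trim38, Dynlt1b and Lyrm7).

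**Figure D1:**
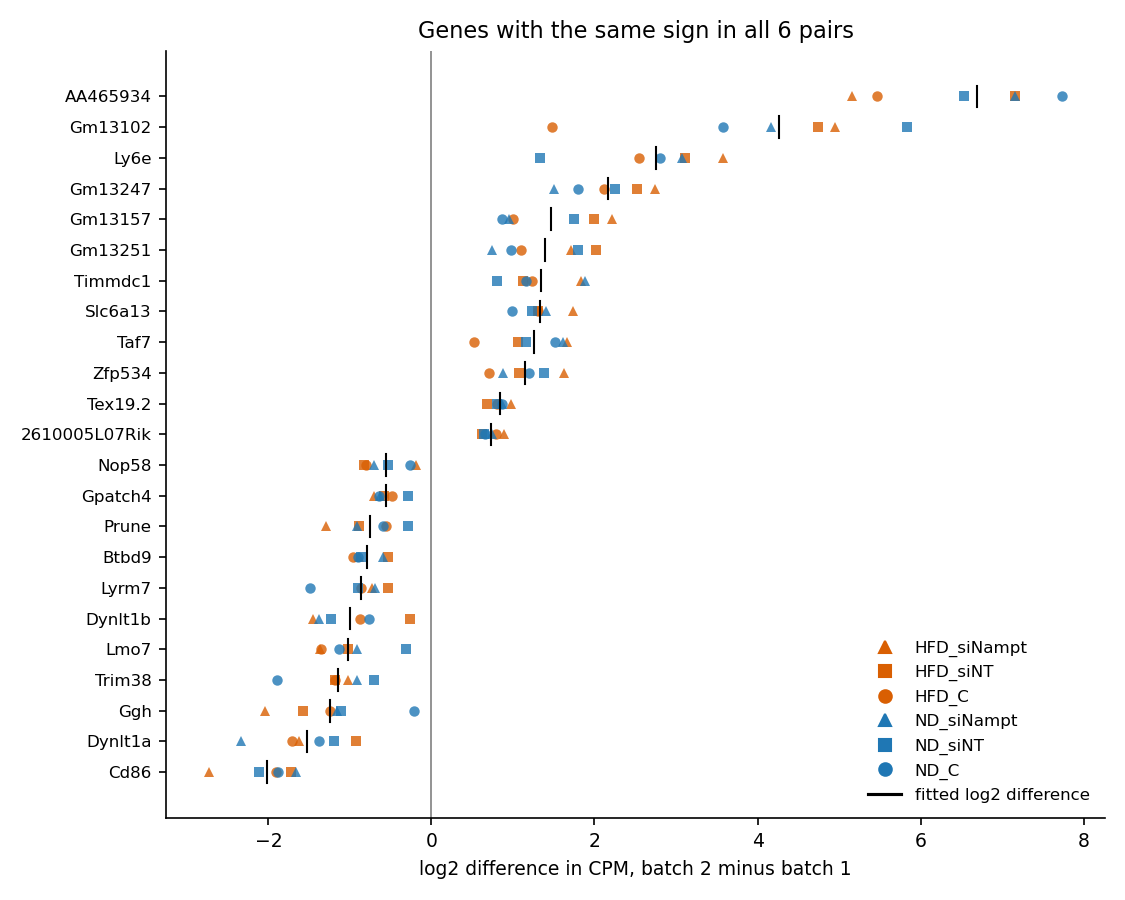
Log2 difference in CPM, batch 2 minus batch 1, of 23 genes named over all 6 pairs. Points are the pairs by group, black bars the fitted difference, and every point of a gene lies on the same side of 0, with AA465934 between 5.16 and 7.74.

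Zinc-finger genes of chromosome 4 stood out by position, a grouping made after the values were seen. Neighbouring called genes were joined with a gap setting of 2 Mb, which gave 6 intervals holding 22 of the 48. Those on chromosomes 4 and 2, which held the most called genes, are given here. The called genes set the bounds of an interval, so its share of calls is no test against that of all genes. Between chr4:144099880-147812229 (mm10), 10 of 27 autosomal genes tested were higher in batch 2 with an adjusted p under 0.05, beside 0.273% of all autosomal genes. Of the 27, 20 had a positive difference, beside 6440 of all 12819, with a median of 0.34. The 10 were Gm13102, Znf41-ps, Gm13051, Zfp600, Gm13251, Gm13247, Gm13139, 2610305D13Rik, Zfp534 and Gm13157, most of them zinc-finger genes by their names, since RefSeq lists Gm13051, Gm13251, Gm13247, Gm13139, 2610305D13Rik and Gm13157 as Zfp987, Zfp992, Zfp981, Zfp991, Zfp979 and Zfp984 in this order. Zinc-finger genes of this kind often encode repressors of transposable elements. Gm13247 was 29.98, 32.2, 18.8, 21.3, 40.9 and 34.6 CPM in batch 2, against 4.43, 5.55, 4.30, 7.46, 8.56 and 9.88 CPM in batch 1, without overlap (log2 difference 2.16, SE 0.17, adjusted p = 0.000141). Gm13157 and Gm13251 differed by 1.46 and 1.39, and Zfp534 by 1.15. Zfp600 was 35.9, 43.6 and 34.2 CPM in HFD and 26.1, 55.9 and 38.4 CPM in ND in batch 2, against 6.29, 6.81 and 10.6 CPM in HFD and 17.3, 22.2 and 19.1 CPM in ND in batch 1 (siNampt, siNT and C). Its libraries did not overlap either, at a log2 difference of 1.63 (SE 0.25, adjusted p = 0.0142). A second group lay on chromosome 2 between chr2:175790548-177512311, where Gm14288, Gm14305, Gm14295 and Gm14403 were called higher and 14 of 15 genes tested had a positive difference (median 0.82), beside the same 0.273% and 6440 of 12819. Chromosome 4 held 11 of the 48 called genes, 1.27% of its genes tested, and no other autosome exceeded 0.704%. Genes of both groups have close copies within them, so the assignment of reads to single members is uncertain.

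Other genes called over all 6 pairs included secreted, cytoskeletal and metabolic ones. Spp1, or osteopontin, a secreted phosphoprotein, was 626, 804, 504, 415, 531 and 285 CPM in batch 2, against 233, 173, 99.00, 146, 325 and 271 CPM in batch 1. The smallest difference was in ND_C and the largest in HFD_C, at a fitted 1.38 (SE 0.25, adjusted p = 0.0395). Ubb, a polyubiquitin gene, was 1.39-fold higher, with 2415 to 3378 CPM (median 2936) in batch 2 and 1798 to 2376 CPM (median 2124) in batch 1. Tpm3, a tropomyosin, was 719.9 to 1075 CPM (median 962) in batch 2 and 373 to 838 CPM (median 559) in batch 1. Pnp, the purine nucleoside phosphorylase of the NAD salvage list, was 68.6 to 108 CPM (median 79.9) in batch 2 and 38.8 to 58.8 CPM (median 47.8) in batch 1. It was the only called member among the 30 autosomal gene lists in this comparison. Of all autosomal genes 0.374% were called, and this 1 call is not read as a result about the lists. Over lists with at least 10 genes tested, medians ran from -0.26 for cholesterol synthesis to 0.28 for Trp53 targets, beside 0.00 for all autosomal genes. The cholesterol median was -0.15 without HFD_siNampt and -0.17 with the Y-linked covariate, and the Trp53 median 0.19 without ND_siNampt and 0.13 with the covariate. In the cholesterol list 18 of 22 genes had a negative difference and 8 of them had an unadjusted p under 0.05, as did 4.98% of all autosomal genes in that direction, while 0 passed adjustment by edgeR and 4 by DESeq2. Of the Trp53 list 20 of 24 had a positive difference, 8 of them at an unadjusted p under 0.05 (4.7% of all autosomal genes), with 0 called by edgeR and 3 by DESeq2. Among all autosomal genes DESeq2 called 144 higher and 127 lower over the 6 pairs.

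Trib3 and Chac1 showed no common direction over the 6 pairs. Trib3 was 10.3, 27.8 and 15.1 CPM in the siNampt, siNT and C libraries of HFD in batch 2, against 8.62, 10.05 and 1.63 CPM in batch 1. In ND it was 2.38, 5.56 and 3.45 CPM in batch 2, against 28.2, 13.9 and 8.33 CPM in batch 1. Batch 2 was thus the higher in all HFD pairs, by little in siNampt, and the lower in all ND pairs, without overlap in either diet. Chac1 was 2.37, 19.3 and 4.98 CPM in HFD in batch 2, against 3.44, 4.81 and 0.130 CPM in batch 1. In ND it was 0.293, 1.19 and 0.362 CPM in batch 2, against 13.9, 12.1 and 9.44 CPM in batch 1. The ND libraries of the batches lay far apart, while in HFD they overlapped and the siNampt pair ran the other way. Over the 6 pairs the mean log2 difference was -0.20 for Trib3 (SD 2.36, exact paired sign-flip test, two-sided p = 0.875) and -1.15 for Chac1 (SD 4.01, exact p = 0.5), where the smallest possible p is 0.03125. Batch 2 was higher in 3 of 6 pairs for Trib3 and in 2 of 6 for Chac1.

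**Figure D2:**
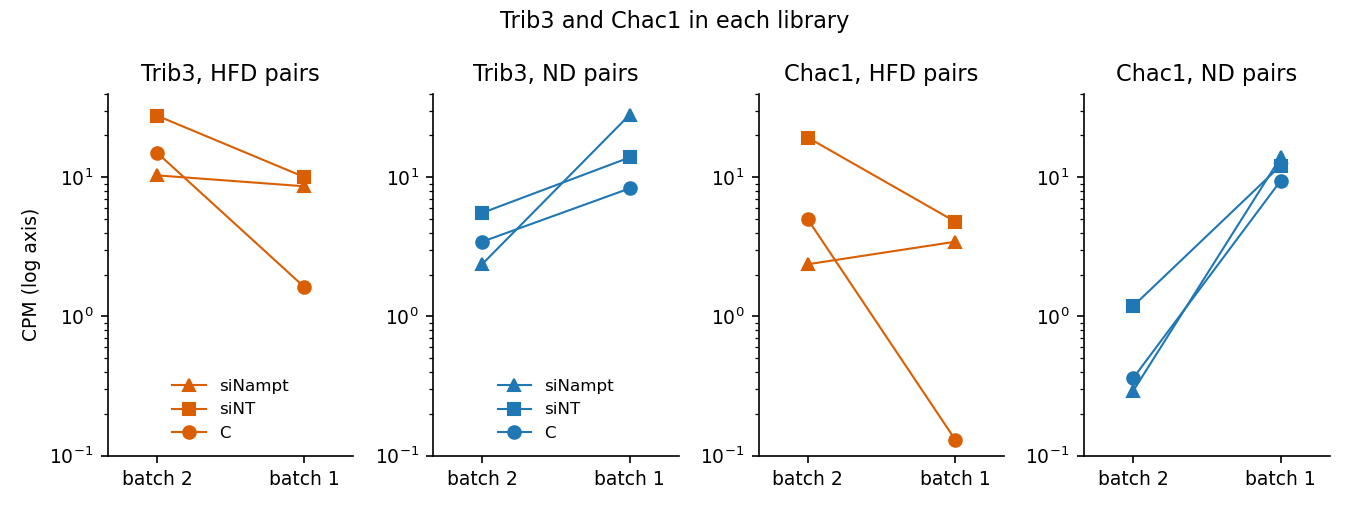
CPM of Trib3 and Chac1 on a log axis in each library, batch 2 left of batch 1, with a line joining the libraries of a group. In ND every batch 2 library lies below its batch 1 partner for both genes, with partners of up to 28.2 CPM for Trib3 and 13.9 CPM for Chac1. In HFD it lies above in 3 of 3 pairs for Trib3 and 2 of 3 for Chac1.

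Within a diet, the edgeR fit of all 12 libraries gave Chac1 a batch difference of 1.85 (SE 0.74, adjusted p = 0.415) in HFD and -4.44 (SE 0.75, adjusted p = 0.0190) in ND, where it was 21.8-fold lower in batch 2. The difference between the diets, HFD minus ND, was 6.30 (SE 1.05, adjusted p = 0.0373). For Trib3 the values were 1.59 (SE 0.51, adjusted p = 0.291) in HFD, -2.02 (SE 0.51, adjusted p = 0.0902) in ND and 3.60 (SE 0.72, adjusted p = 0.0561) for HFD minus ND, so that none passed the threshold. The exact test within a diet cannot go below 0.25 with 3 pairs. The ND call of Chac1 was lost without the HFD_siNT, ND_C or ND_siNampt pair and with the Y-linked covariate, and the HFD minus ND call without the HFD_C, HFD_siNT or ND_siNampt pair, with no replicate block, with the GC and length correction and in limma. Without the HFD_siNampt pair, Chac1 was called in HFD as well, at 3.07 (adjusted p = 0.0325).

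Across all genes, 54 autosomal genes were called in the HFD pairs (0.421% of those tested) and 124 in the ND pairs (0.967%). In HFD 33 were higher (0.257%) and 21 lower (0.164%) in batch 2, and in ND 69 were higher (0.538%) and 55 lower (0.429%). Of these, 15 were called in both, with the same sign in each, 27.8% of the HFD calls and 12.1% of the ND calls. Without ND_siNampt 25 genes were called in ND and without HFD_siNampt 317, while 78 were called without HFD_siNT, 64 without ND_C and 59 without ND_siNT. In HFD 10 were called without HFD_siNT, 21 without HFD_C and 93 without HFD_siNampt. Batch differences correlated at r = 0.0588 between the diets across 12819 autosomal genes and at r = 0.116 across the 8174 of at least 5 CPM, and genes are not independent replicates. Between single pairs, r across genes was 0.142 to 0.286 within HFD, 0.337 to 0.563 within ND and -0.119 to 0.331 across the diets. The HFD minus ND difference was called for 52 genes (0.406%; 29 positive, 0.226%, and 23 negative, 0.179%), of which 50 had opposite signs in the 2 diets and 37 the larger difference in ND. None of these 52 was among the 48 genes called over all pairs. The number of calls changed with the pairs kept. Without the HFD_C pair 0 genes were called, 3 without HFD_siNT, 6 without ND_siNampt, 25 without ND_siNT and 234 without HFD_siNampt. Genes at an unadjusted p under 0.05 in edgeR numbered 1446 with all pairs. They numbered 1405 without HFD_C, 1456 without HFD_siNT, 885 without ND_siNampt, 1029 without ND_siNT and 1622 without HFD_siNampt. Leaving out a pair also removes samples, and whether the 52 differences came from single pairs was not tested. Correcting for GC and length left 29 calls, limma on log2(TPM + 1) gave 1, and dropping the replicate block gave 8.

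**Figure D3:**
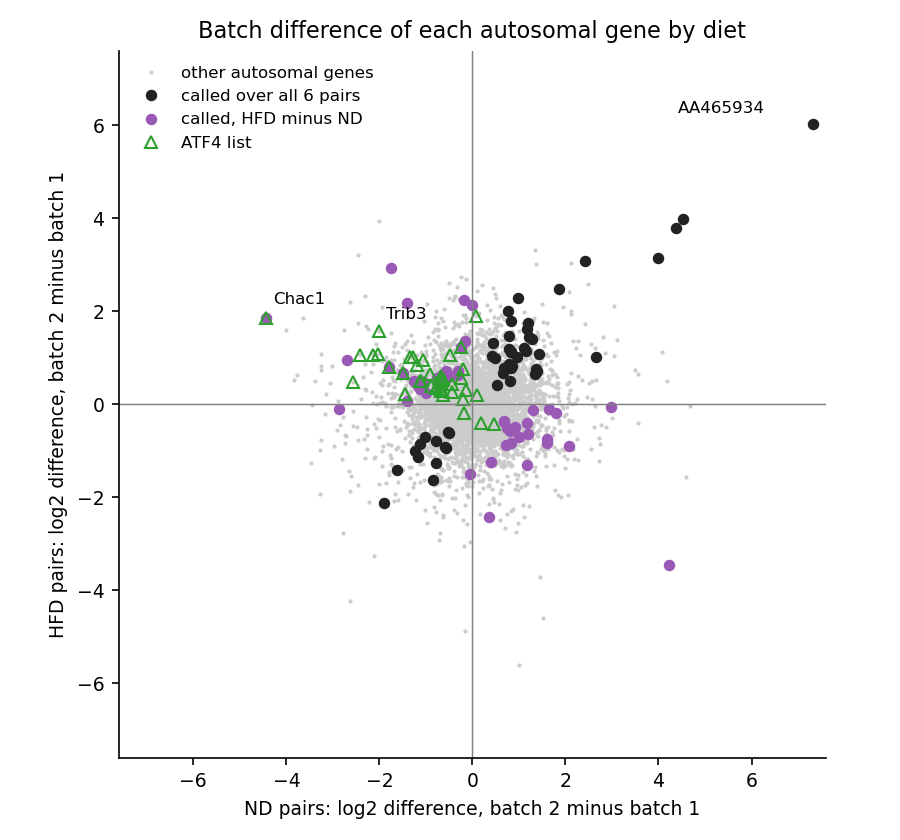
Log2 difference, batch 2 minus batch 1, of each autosomal gene in the ND pairs (horizontal) and the HFD pairs (vertical), with 1 gene outside the axes. Genes called over all 6 pairs have the same sign on both axes, and 50 of the 52 genes called for HFD minus ND have opposite signs, as does most of the ATF4 list.

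The ATF4 list (42 genes, 40 autosomal genes tested) had differences of opposite sign in the diets. In the HFD pairs 37 of 40 genes had a positive difference, with a median of 0.52 (0.81 without HFD_siNampt) beside 0.00 for all autosomal genes. In the ND pairs 36 of 40 had a negative one, with a median of -0.69 beside 0.00. The median of HFD minus ND was 1.28, positive for 38 of 40. Pair by pair the list median was -0.19, 0.75 and 0.86 in HFD and -1.25, -0.62 and -0.40 in ND (siNampt, siNT and C). The HFD_siNampt pair was thus not shifted like the other HFD pairs, with 14 of 40 genes positive against 37 in HFD_siNT and 40 in HFD_C. Every HFD library of batch 2 lay above every one of batch 1 for 11 of 40 genes, as for 6.81% of all autosomal genes. Every ND library of batch 2 lay below every one of batch 1 for 22 of 40, as for 8.74% of all.

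Of the list's 40 members tested, 1 was called in HFD, beside 0.421% of all autosomal genes, 7 in ND, beside 0.967%, and 8 for HFD minus ND, beside 0.406%. Over all 6 pairs 0 were called, beside 0.374% (edgeR, with 0 at an unadjusted p under 0.05, beside 9.69%, and 0 by DESeq2), against 1 higher and 5 lower with no filter on low counts. In that setting 202 autosomal genes were called higher and 204 lower. Ddit3, the transcription factor CHOP, was the one called in HFD, at 39.3, 56.3 and 25.7 CPM in batch 2, against 19.7, 15.2 and 14.5 CPM in batch 1, a log2 difference of 1.23 (SE 0.20, adjusted p = 0.0126), and 0 members were called in HFD without HFD_C or without HFD_siNT. In ND it was 26.9, 37.6 and 23.2 CPM in batch 2, against 35.3, 41.99 and 26.5 CPM in batch 1, and did not pass (-0.25). Psat1, of serine synthesis, was 187, 368 and 268 CPM in HFD in batch 2, against 173, 219.8 and 169 CPM in batch 1, and 130.1, 146 and 129 CPM in ND in batch 2, against 444, 321 and 179 CPM in batch 1. Its ND level fell by 1.13 on the log2 scale in batch 2 (adjusted p = 0.0221), and HFD minus ND was 1.63 (SE 0.28, adjusted p = 0.0389). Mthfd2, the mitochondrial one-carbon enzyme, was 41.8, 104 and 85.3 CPM in HFD in batch 2, against 55.9, 49.1 and 33.4 CPM in batch 1, and 26.5, 37.9 and 22.4 CPM in ND in batch 2, against 112, 78.8 and 55.9 CPM in batch 1. The ND libraries did not overlap (-1.48, SE 0.28, adjusted p = 0.0298), and HFD minus ND was 2.17 (SE 0.40, adjusted p = 0.0435). Herpud1, which acts in degradation of proteins from the endoplasmic reticulum, was 13.9, 33.9 and 18.9 CPM in ND in batch 2, against 93.5, 67.6 and 59.9 CPM in batch 1 (-1.79, SE 0.32, adjusted p = 0.0220), with HFD minus ND at 2.59 (SE 0.44, adjusted p = 0.0386). Aldh18a1, the first enzyme of proline synthesis, was called in ND (-1.46, SE 0.31, adjusted p = 0.0445), and its HFD minus ND value was 1.68 (SE 0.43, adjusted p = 0.128). The 7 ND calls fell to 0 without ND_siNampt and to 1 in limma, and were 3 without HFD_C, HFD_siNT or ND_C and 4 without ND_siNT, against 16 without HFD_siNampt, 15 by DESeq2 and 23 with no filter on low counts. In the last 3 settings the calls of all autosomal genes in ND rose as well, from 124 to 317, 498 and 625. The 8 calls for HFD minus ND fell to 0 without HFD_C, HFD_siNT or ND_siNampt and in limma, to 2 with the GC and length correction and to 1 with no replicate block, and there were 22 without HFD_siNampt and 22 by DESeq2. Calls of all autosomal genes for HFD minus ND likewise rose from 52 to 234 without HFD_siNampt and 299 by DESeq2.

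**Figure D4:**
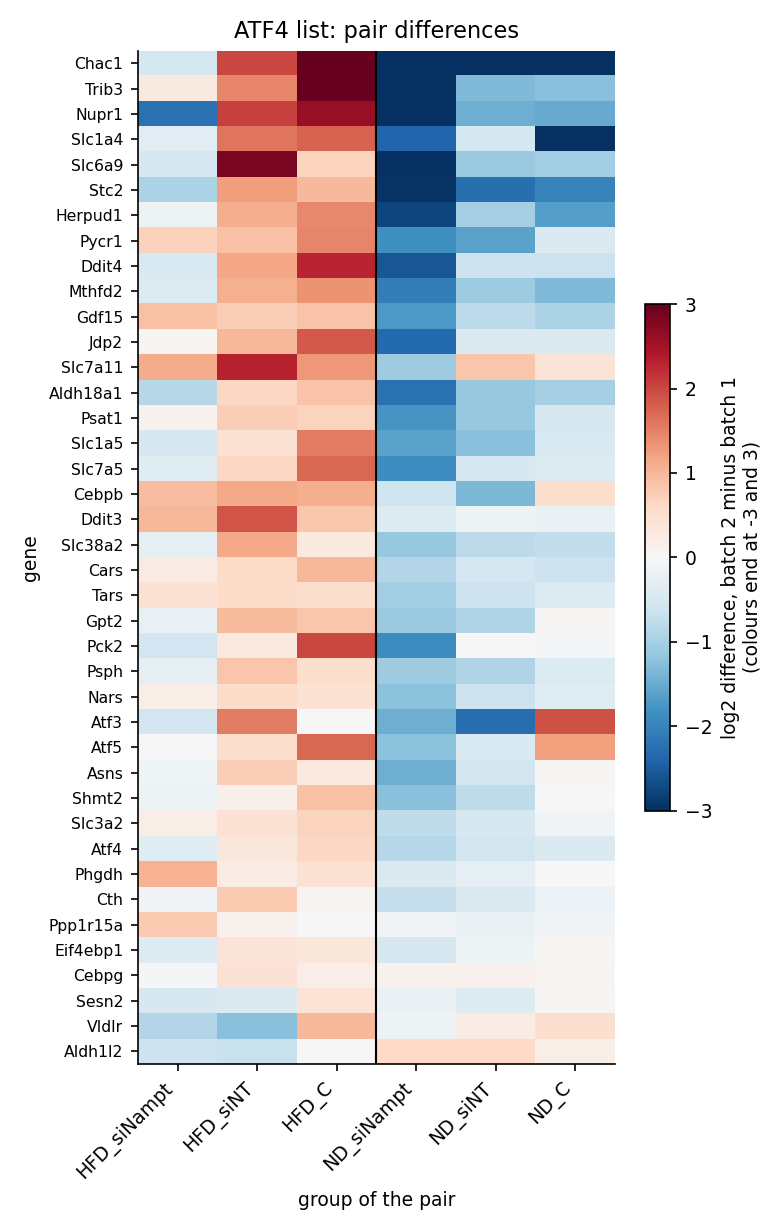
Log2 difference, batch 2 minus batch 1, of the 40 tested genes of the ATF4 list (rows) in each pair (columns, HFD left of ND), with colours ending at -3 and 3. Most cells of the HFD_siNT and HFD_C columns are positive, those of the ND columns negative, and HFD_siNampt is mixed, with a median of -0.19.

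Atf4 mRNA itself was 132, 197 and 179.9 CPM in HFD in batch 2, against 169, 155 and 117 CPM in batch 1, and 117, 124 and 118 CPM in ND in batch 2, against 212, 185 and 160.4 CPM in batch 1. The ND libraries did not overlap, yet the difference did not pass (-0.62, SE 0.16, adjusted p = 0.103). The 15 kinases and brakes of the response, which sense stress or dephosphorylate eIF2alpha, had medians of -0.05 in HFD, -0.05 in ND and 0.07 for HFD minus ND, with 0 called by edgeR in any (at an unadjusted p under 0.05, 2 in HFD, 1 in ND and 1 for HFD minus ND, beside 9.8%, 12.8% and 11.3% of all autosomal genes). The genes whose log2 CPM over the 12 libraries was most like that of Trib3, among 8173 autosomal genes of at least 5 CPM, were Chac1 (Pearson r = 0.947), Jdp2 (0.944), Mycn (0.934), Herpud1 (0.920) and Slc7a5 (0.919). Those most like Chac1 were Trib3 (0.947), Herpud1 (0.931), Atf4 (0.921), Rnaset2a (0.901) and Mthfd2 (0.896), where Rnaset2a has a near-identical copy. The 12 libraries share their batches and diets, so these values describe them and carry no p.

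Cytosolic aminoacyl-tRNA synthetases, which charge tRNAs and of which 3 are also on the ATF4 list, had the same signs. All 20 had a positive difference in HFD (median 0.34) and 18 of 20 a negative one in ND (median -0.37). Pair medians were 0.23, 0.32 and 0.48 in HFD and -0.69, -0.36 and -0.14 in ND (siNampt, siNT and C). None was called in HFD by edgeR, against 9 at an unadjusted p under 0.05 (4.81% of all autosomal genes) and 4 by DESeq2, which called 116 autosomal genes higher. Nars and Tars were called lower in ND, 2 of 20, beside 0.429% of all autosomal genes. HFD minus ND was called for Cars (1.28), Nars (1.14), Sars (1.12) and Tars (1.196), the enzymes for cysteine, asparagine, serine and threonine, with adjusted p of 0.0398, 0.0409, 0.0398 and 0.0251 in edgeR. These were 4 of 20, beside 0.226% of all autosomal genes with a positive call. Cars, Nars and Tars are the 3 genes shared with the ATF4 list, so only Sars was a call outside it. Tars was 169, 209 and 185 CPM in HFD in batch 2, against 126, 143 and 129 CPM in batch 1, and 118, 117 and 131 CPM in ND in batch 2, against 243, 181 and 175 CPM in batch 1. Its libraries overlapped in neither diet. The 4 calls for HFD minus ND fell to 0 without HFD_C, HFD_siNT or ND_siNampt and in limma, and to 1 without ND_siNT. The 2 in ND fell to 0 without ND_siNT or ND_siNampt and in limma, and to 1 without HFD_C or HFD_siNT.

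Among 26 chaperones of the endoplasmic reticulum and genes of the unfolded protein response, which shares the kinase PERK with the ATF4 pathway, 19 were positive in HFD (median 0.21) and 22 negative in ND (median -0.15). Derl3, a component of endoplasmic reticulum-associated degradation, was 5.52, 4.13 and 4.18 CPM in HFD in batch 2, against 1.33, 0.994 and 0.761 CPM in batch 1, and 1.43, 1.31 and 1.17 CPM in ND in batch 2, against 3.38, 3.36 and 3.53 CPM in batch 1. The groups were apart in both diets and in opposite directions, at 2.18 (SE 0.32, adjusted p = 0.00908) in HFD, -1.40 (SE 0.31, adjusted p = 0.0585) in ND and 3.58 (SE 0.44, adjusted p = 0.00888) for HFD minus ND. Creld2 and Manf, secreted proteins induced by stress of that organelle, were called higher in HFD (0.75 and 0.63), and Manf and Xbp1, a transcription factor of the response, for HFD minus ND (0.94 and 1.10). With Derl3 these made 3 of 26 in each comparison, beside 0.257% and 0.226% of all autosomal genes in that direction. The 3 HFD calls fell to 0 without HFD_C and without HFD_siNT, as did the 3 for HFD minus ND, where 1 member was called without ND_siNT or without ND_siNampt. The HFD median was 0.33 without HFD_siNT, and the ND median -0.087 without ND_siNampt. No member of this list was called in ND by edgeR, against 5 at an unadjusted p under 0.05 (6.24% of all autosomal genes) and 2 by DESeq2, which called 251 autosomal genes lower there.

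**Figure D5:**
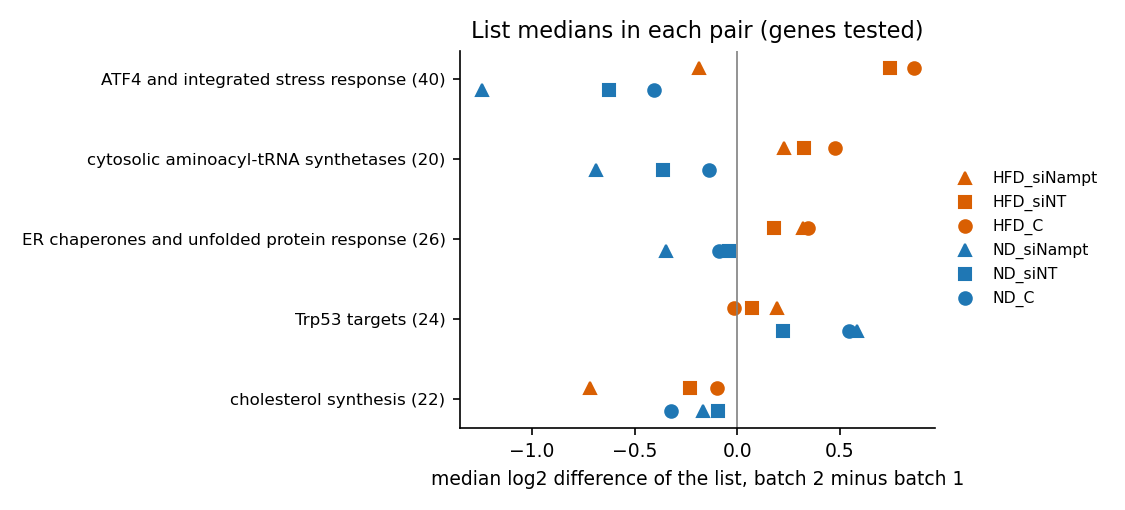
Median log2 difference, batch 2 minus batch 1, of 5 gene lists in each pair (HFD above ND), with the number of autosomal genes tested in brackets. The ATF4 list has medians of -0.19, 0.75 and 0.86 in HFD and -1.25, -0.62 and -0.40 in ND, whereas the cholesterol list is below 0 in every pair.

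Targets of Trp53, the stress-responsive tumour suppressor p53, were of the opposite sign to the ATF4 list in ND, where 20 of 24 had a positive difference (median 0.44), against a median of 0.06 in HFD. Cdkn1a, the cell cycle inhibitor p21, was 133, 72.3 and 108 CPM in ND in batch 2, against 57.7, 47.2 and 62.2 CPM in batch 1 (0.88, SE 0.15, adjusted p = 0.0207). Fas, a death receptor, was 2.97, 2.22 and 7.98 CPM in ND in batch 2, against 0.877, 0.429 and 0.418 CPM in batch 1. Btg2, Fas and Ddit4l were also called higher in ND (0.71, 2.76 and 1.60), which made 4 of 24, beside 0.538% of all autosomal genes. HFD minus ND was called for Ddit4l alone (-2.34, SE 0.42, adjusted p = 0.0409), beside 0.179% of all autosomal genes with a negative call. The ND libraries highest in Cdkn1a, siNampt and C of batch 2, were also low in summed Y-linked transcripts, at 91.95 and 116 CPM, against 351 and 327 CPM in batch 1. The 4 ND calls fell to 0 without ND_siNampt, to 1 without any one of HFD_C, HFD_siNT, ND_C and ND_siNT, and to 0 or 1 in limma. The call of Ddit4l for HFD minus ND was lost without HFD_C, HFD_siNT, ND_siNT or ND_siNampt, in limma and with no replicate block. With the Y-linked covariate, the ND median of the Trp53 list was 0.26. Called in ND were then 0 Trp53 targets and 0 ATF4 list members, among 27 autosomal genes called. For HFD minus ND, 10 ATF4 list members were called, among 68 autosomal genes. Mt1 and Mt2, the metallothioneins that bind zinc and copper, were higher in ND in batch 2. Mt1 was 264, 439.8 and 384 CPM in batch 2, against 129, 127 and 117 CPM in batch 1 (1.52, SE 0.22, adjusted p = 0.00707), and Mt2 differed by 1.54 (SE 0.26, adjusted p = 0.0207). They were 2 of 6 metal response genes tested, beside 0.538% of all autosomal genes called higher in ND. In HFD (list median -0.02) and for HFD minus ND (-0.78) 0 of the 6 were called.

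The genes of smallest p in each diet held several outside these lists. H19, an imprinted noncoding RNA expressed from the maternal allele, was 13.7, 12.8 and 10.7 CPM in HFD in batch 2, against 7.98, 6.92 and 4.65 CPM in batch 1, and 2.11, 1.47 and 1.28 CPM in ND in batch 2, against 20.8, 9.39 and 5.26 CPM in batch 1. The batches were apart in both diets and in opposite directions, though H19 was not called in HFD. The edgeR fit gave -2.69 (SE 0.26, adjusted p = 0.00113) in ND and 3.64 (SE 0.36, adjusted p = 0.00216) for HFD minus ND. Ly6a, a Ly6 family surface protein, was 794, 636 and 716 CPM in HFD in batch 2, against 944, 873 and 995 CPM in batch 1, and 1108, 852 and 1019.6 CPM in ND in batch 2, against 354, 437 and 543 CPM in batch 1. It was called in ND (1.17, SE 0.14, adjusted p = 0.00237) and for HFD minus ND (-1.57, SE 0.20, adjusted p = 0.00888). Wls, which carries Wnt proteins to the cell surface, was 15.5, 11.6 and 11.7 CPM in ND in batch 2, against 36.4, 31.1 and 24.9 CPM in batch 1 (-1.25, SE 0.15, adjusted p = 0.00261), with HFD minus ND at 1.74 (SE 0.21, adjusted p = 0.00888). Pnliprp2, a lipase, was higher in ND in batch 2 (1.81, SE 0.21, adjusted p = 0.00237), and HFD minus ND was -2.0005. Rplp2-ps1, a pseudogene of a ribosomal protein whose reads may be shared with its parent gene, had 546 counts over the 3 ND libraries of batch 2 and 0 over those of batch 1, which makes it at least 181-fold higher where 3 counts summed over the group were taken as the floor. In HFD it was 3.89, 2.15 and 0 CPM in batch 2, against 2.80, 7.68 and 0 CPM in batch 1, with 0 counts in the HFD_C library of either batch.

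Among lineage and other lists, few members were called. Lower in ND were 2 of 29 trophectoderm and 1 of 24 epiblast genes tested. So were 1 of 18 immediate early and 1 of 23 antioxidant genes, beside 0.429% of all autosomal genes. Higher in ND was 1 of 13 oocyte genes, beside 0.538%, and lower in HFD 1 of 23 antioxidant genes, beside 0.164%. For HFD minus ND 1 of 29 trophectoderm and 1 of 18 immediate early genes were called positive, beside 0.226%. In the negative direction 1 of 13 oocyte genes was, beside 0.179%. Id2 and Tspan8 of the trophectoderm list fell in ND in batch 2 (-0.57 and -0.69, adjusted p = 0.0219 and 0.0221), and HFD minus ND was called for Tspan8 (1.08). Morc1 of the epiblast list fell by 1.46, Dusp6, a phosphatase that turns off ERK, by 0.996, and Hmox1, heme oxygenase, by 0.90 on the log2 scale in ND in batch 2. Oas1e of the oocyte list rose in ND (1.61, SE 0.31, adjusted p = 0.0305), with HFD minus ND at -2.44, and HFD minus ND was 1.24 for Dusp6. The ND calls of Id2, Tspan8, Morc1, Dusp6, Hmox1 and Oas1e were lost without ND_siNampt. Gstm1, a glutathione transferase, was lower in HFD in batch 2 (-1.02, SE 0.18, adjusted p = 0.0230). The list medians of trophectoderm, epiblast and primitive endoderm were 0.14, -0.05 and 0.18 in HFD and -0.05, -0.03 and -0.25 in ND, but moved with single pairs. In HFD the trophectoderm median was 0.067 without HFD_C, the epiblast one -0.15 without HFD_C and 0.006 without HFD_siNT, and the primitive endoderm one -0.014 without HFD_C, 0.081 without HFD_siNT and 0.49 without HFD_siNampt. In ND the trophectoderm median was -0.26 without ND_C and -0.13 without ND_siNT, the epiblast one 0.038 without ND_C and -0.021 without ND_siNampt, and the primitive endoderm one -0.16 without ND_siNampt. The medians of ribosomal proteins and oxidative phosphorylation were between -0.04 and -0.01 in both diets with all pairs, and moved with single pairs too. In HFD the oxidative phosphorylation median was -0.12 without HFD_siNT and 0.081 without HFD_siNampt. The ribosomal one was -0.066 and 0.027 in the same order.

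The batch difference of the siNampt and siNT pairs was also compared with that of the C pairs. No autosomal gene was called by edgeR (0%), against 339 (2.64%) at an unadjusted p under 0.05, 6 by DESeq2 and 0 by limma. Taken alone, the 4 siNampt and siNT pairs gave 18 called genes (0.14%), 17 of them among the 48, and the 2 C pairs gave 1 (0.0078%). The median SE was 0.199 for those 4 pairs, 0.281 for the C pairs and 0.344 for their difference, against 0.161 over all pairs. The counts therefore differ in precision and do not compare the sizes of the differences.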

How the data were processed

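Libraries were made with the SMART-Seq v4 PLUS kit from poly(A) RNA, per the labels' protocols, and the submitters' processing notes name STAR 2.7.10, RSEM 1.2.28 and mm10. Each library has a deposited table of RSEM output per gene with the expected count, TPM, FPKM and gene lengths. The expected count is the authors' estimate of reads per gene, deposited without normalization, of which 6.16% to 6.80% per library were not whole, and it was rounded here. TPM was deposited by the authors, scaled within a library, and used here in limma alternatives and FPKM, also deposited by the authors, was not used in a test. Lengths in bases are deposited values and entered the GC and length correction. The labels do not say whether strand was used in counting, so overlapping and antisense genes cannot be told apart.

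Genes were placed by matching accessions or symbols to RefSeq on GRCm38.p6 (24161 by accession, 201 by symbol, 49 unplaced). Genes were kept by filterByExpr with a minimum count of 10, and 13344 were tested in R 4.3.3 with edgeR 4.0.16 (TMM factors, glmQLFit and glmQLFTest, two-sided, Benjamini-Hochberg over all genes tested, threshold 0.05). The 6 groups entered as a block, so that the libraries of a group form a pair; the labels give the batch and the group of each library, and groups share the replicate numbers. Batch effects in ND, in HFD and their difference came from 1 fit in which batch was nested in diet. CPM values use TMM factors, and log2 CPM of single libraries a prior count of 2. Trib3 and Chac1 were also tested by exact paired sign-flip permutation. On simulated counts for these fits, the script was checked against known fold changes. Library totals were alike, and what set the precision of single genes was not tested.

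The genes named are Trib3 and Chac1, the 12 higher and 12 lower autosomal genes of smallest p that passed with the same sign in 6 of 6 pairs and a mean of at least 1 CPM, up to 4 members of each list, up to 6 genes of smallest p for each diet and their difference, and the 5 genes most like Trib3 and like Chac1. Of these genes, 1 that the rule names is not reported here. Genes of the chromosome 4 and 2 groups and others called over all pairs were named after their values were seen. The members and lists were chosen with earlier results of these data known. Alternatives were DESeq2 1.42.0, limma 3.58.1 on log2(TPM + 1) and log2(TPM + 0.1), RLE size factors, no filter and a filter of 5 CPM in 6 libraries. Others were a GC and length correction, the mean log2 CPM of 8 Y-linked genes as a covariate, no replicate block and each pair left out. Sex-linked genes are not reported as results.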

Additional observations from a re-analysis of the deposited data

Results flagged for a closer look

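Single libraries stood apart from the other 5 of their batch in 12 of 152 groups of 6 tested by Dixon's ratio. Among like, independent libraries chance flags about 1 in 20 groups. Here each library of a batch is of a different diet or treatment, and many genes were named from these data. That share is therefore no reference for the 12, and whether a flag went with diet or treatment was not tested. In batch 2 these were Gm13102 at 2.51 CPM and Ggh at 5.40 CPM in HFD_C, Rplp2-ps1 at 0 CPM in HFD_C, and Gpatch4 at 32.3 CPM and Gm14305 at 20.7 CPM in HFD_siNT. In batch 1 they were Chac1 at 0.130 CPM in HFD_C, Zfp534 at 7.62 CPM in HFD_siNampt, Cdkn1a at 47.2 CPM in ND_siNT and Dusp6 at 62.6 CPM in ND_siNampt. Also in batch 1, the HFD_siNampt library had 17948 genes with a count, the highest of the 6, and the lowest Y-linked sum at 162 CPM, and the HFD_siNT library had the shortest mean fragment length at 187 bases.

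The batch difference itself differed between HFD and ND, by the edgeR test of HFD minus ND, for 52 autosomal genes. Among genes of stress responses the log2 values were 6.30 for Chac1, 1.48 for Ddit3, 1.63 for Psat1, 2.17 for Mthfd2, 2.59 for Herpud1, 1.28 for Cars, 1.14 for Nars, 1.12 for Sars, 1.196 for Tars, 3.58 for Derl3, 0.94 for Manf and 1.10 for Xbp1. Other positive values were 3.64 for H19, 1.74 for Wls, 1.24 for Dusp6 and 1.08 for Tspan8. Negative values were -1.57 for Ly6a, -2.0005 for Pnliprp2, -2.34 for Ddit4l and -2.44 for Oas1e. Rplp2-ps1 had a fitted value of -11.18, which depends on the prior count since its ND libraries of batch 1 held no count.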

How the results depend on the processing

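Counts of called autosomal genes over all 6 pairs (48), in HFD (54), in ND (124), for HFD minus ND (52) and for siNampt and siNT minus C (0) depended on the tool and the filter. DESeq2 called 271, 217, 498, 299 and 6 genes in this order, and edgeR with no filter on low counts 406, 340, 625, 470 and 43. With limma on log2(TPM + 0.1) there were 31 in HFD, 53 in ND and 7 for HFD minus ND, and on log2(TPM + 1) 32, 56 and 1. The GC and length correction gave 201 in ND and 29 for HFD minus ND, and the Y-linked covariate 11 over all pairs and 27 in ND. The siNampt and siNT pairs alone gave 18 and the C pairs alone 1, with a larger median SE in both than over all pairs. With no replicate block, which drops the pairing by group, there were 67, 41, 83, 8 and 0 genes. Leaving out each pair gave 24 to 45 over all pairs, 10 to 93 in HFD, 25 to 317 in ND, 0 to 234 for HFD minus ND and 0 to 3 for siNampt and siNT minus C. The cause was not tested in these cases, although leaving out a pair also removes samples. Over all pairs, the Y-linked covariate turned Trib3 to 0.72 and Chac1 to 0.41. Trib3 was -0.84 to 0.40 in edgeR without a pair, at 0.07, 0.09 and 0.40 without ND_C, ND_siNT and ND_siNampt. Its mean pair difference was -0.88 to 0.46 without a pair, at 0.01, 0.02 and 0.46 without those 3, and that of Chac1 was -2.35 to -0.31. With no replicate block the exact p was 0.807 for Trib3 and 0.396 for Chac1. The median of the Trp53 list in HFD was -0.048 to 0.17 without a pair, the lowest without HFD_siNampt. Alternatives for the lists were added after seeing the data. Of the 21 named HFD minus ND differences, 21 were lost without HFD_C, 20 without HFD_siNT, 16 without ND_siNampt and 0 without HFD_siNampt. Without ND_siNT 10 were lost, and 6 without ND_C. With all libraries kept, 20 were lost in limma on log2(TPM + 1) and 15 on log2(TPM + 0.1). No replicate block lost 16 and the GC and length correction 10. The other alternatives lost none where the gene was tested.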
